A study of Mus musculus with 12 samples.

Results

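The 7 genes described here form the core of the aryl hydrocarbon receptor (AhR) pathway, namely the receptor gene Ahr, its partner Arnt, the 2 feedback genes Ahrr and Tiparp, and the 3 family 1 cytochromes P450 Cyp1a1, Cyp1a2 and Cyp1b1. They were chosen by name, and their symbols were matched to the Ensembl identifiers among the 46078 genes of the count files. All 7 passed the filter on low counts and were tested. RNA came from scrapings of the proximal ileal epithelium, the lining of the upper part of the last segment of the small intestine, of male C57BL/6 mice. Sesame oil vehicle or TCDD, a persistent chlorinated dioxin that binds AhR, was given by oral gavage 7 times at 4-day intervals from 28 days of age, and tissue was taken at 56 days of age. The 12 libraries formed 4 groups of 3, at 0 (vehicle), 3, 10 and 30 μg/kg TCDD, and the comparisons ask how each gene of the pathway responded to dose.

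In the resting cell, AhR is held in the cytosol by a chaperone complex that includes HSP90 and p23. A ligand sends it to the nucleus, where it pairs with ARNT and binds dioxin response elements, whose core letters are GCGTG, near genes such as Cyp1a1. The P450 enzymes made in response oxidize aromatic compounds, while AHRR competes with AhR for ARNT and DNA, and TIPARP, an ADP-ribosyltransferase, attaches ADP-ribose to AhR and dampens it. In the intestine, AhR also senses indoles from diet and microbes, which CYP1A1 helps to clear.

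The promoters of the 3 P450 genes and of Ahrr are printed because these 4 genes gave the widest span of responses, from a gene detected in no library at 1 dose to the steepest increases. Each window covers the 250 bases before the start site in RefSeq (build GRCm38.p6), written 5′ to 3′ on the gene's own strand, with GCGTG on either strand in capitals (CACGC where it lies on the opposite strand). The windows are chr9:57697363-57697612 on the plus strand for Cyp1a1, chr9:57683656-57683905 on the minus strand for Cyp1a2, chr17:79715062-79715311 on the minus strand for Cyp1b1 and chr13:74292332-74292581 on the minus strand for Ahrr.
Cyp1a1: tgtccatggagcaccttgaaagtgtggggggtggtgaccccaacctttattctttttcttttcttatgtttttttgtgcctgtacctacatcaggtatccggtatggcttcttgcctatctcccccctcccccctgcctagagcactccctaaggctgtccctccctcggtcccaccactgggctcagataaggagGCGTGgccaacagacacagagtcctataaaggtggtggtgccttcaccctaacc
Cyp1a2: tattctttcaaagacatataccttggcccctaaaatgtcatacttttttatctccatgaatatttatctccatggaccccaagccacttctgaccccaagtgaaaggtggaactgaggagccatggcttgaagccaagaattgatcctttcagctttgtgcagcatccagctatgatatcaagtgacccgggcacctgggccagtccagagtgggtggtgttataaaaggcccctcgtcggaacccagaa
Cyp1b1: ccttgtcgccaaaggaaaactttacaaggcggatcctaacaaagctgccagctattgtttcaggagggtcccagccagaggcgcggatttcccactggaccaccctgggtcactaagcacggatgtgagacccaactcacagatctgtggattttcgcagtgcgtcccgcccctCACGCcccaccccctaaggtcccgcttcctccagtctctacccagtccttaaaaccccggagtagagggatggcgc
Ahrr: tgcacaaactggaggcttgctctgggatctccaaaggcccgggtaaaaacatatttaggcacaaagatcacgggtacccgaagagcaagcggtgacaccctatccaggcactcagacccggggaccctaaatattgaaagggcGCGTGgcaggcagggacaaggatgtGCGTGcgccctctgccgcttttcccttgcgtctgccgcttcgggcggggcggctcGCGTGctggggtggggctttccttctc

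Cyp1a1 held 1 GCGTG, at positions -54 to -50 from the start site, and Cyp1b1 held 1 on the opposite strand at -76 to -72. Ahrr held 3, at -107 to -103, -82 to -78 and -27 to -23, and the last of these also matched the longer form TNGCGTG. The Cyp1a2 window held 0. Arnt, a gene whose level was not called changed at any dose, held 1 at -29 to -25, and Tiparp held 1 on the opposite strand at -170 to -166. Ahr had no entry among the promoters used here. Of 32851 RefSeq promoters of this length, 28.2% held at least 1 GCGTG on either strand, 2.77% held at least 3, and 4.1% held TNGCGTG. A match of letters is a description of the window and not a binding site. The RefSeq start sites of Cyp1a1 and Cyp1a2 lie 13958 bp apart on chromosome 9 and point away from each other. In the GENCODE M21 annotation, used here for gene positions, Cyp1a1 begins at 57687928, so its printed window lies within that gene.

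Levels are given as CPM, that is, counts divided by the TMM-adjusted size of their library, and between 11695887 and 22180274 counts were assigned to genes per library. A change was called where the edgeR quasi-likelihood test gave a Benjamini-Hochberg adjusted p under 0.05 over all 15823 genes tested and the fitted change was at least 1.5-fold. The median log2 change over all genes tested lay between -0.02 and 0.01 in the 6 comparisons. The 10 enterocyte markers were detected in every library with a summed level of 32227.8 to 50861.1 CPM, and the 10 hepatocyte markers summed to 1.82 to 3.61 CPM, with Fgb, Fga and Mup3 at 0 in all 12 libraries. Reads outside any gene made up 28.0 to 30.1% of entries at 0, 3 and 10 μg/kg but at most 25.4% at 30 μg/kg, and reads aligned to several places 31.4 to 34.6% against 36.2 to 38.8%. The part of these shifts in the results was not tested. Because whole scrapings were sequenced, fewer cells of a type and less RNA per cell cannot be told apart.

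Against vehicle, 1 of the 7 genes was called at 3 μg/kg (Cyp1a2, lower), where 0.228% of all genes tested were called, 0.0569% higher and 0.171% lower. At 10 μg/kg, 3 were called (Ahrr, Cyp1a1 and Cyp1b1, all higher), against 0.613% of all genes, 0.487% higher and 0.126% lower. The 30 μg/kg group had 4 calls (the same 3 and Tiparp, all higher), against 3.97%, 3.08% higher and 0.891% lower. Between adjacent doses, 3 were called from 3 to 10 μg/kg (Ahrr, Cyp1a1 and Cyp1b1, all higher), against 0.158%, 0.145% higher and 0.0126% lower. From 10 to 30 μg/kg, 4 were called (Ahrr, Tiparp, Cyp1a2 and Cyp1b1, all higher), against 2.77%, 2.17% higher and 0.607% lower. For the slope over dose rank, 5 were called (Ahr, Ahrr, Tiparp, Cyp1a1 and Cyp1b1, all higher), against 3.29%, 2.53% higher and 0.752% lower. The comparisons with vehicle share the vehicle libraries, so their values are given side by side and are not independent.

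**Figure D1:**
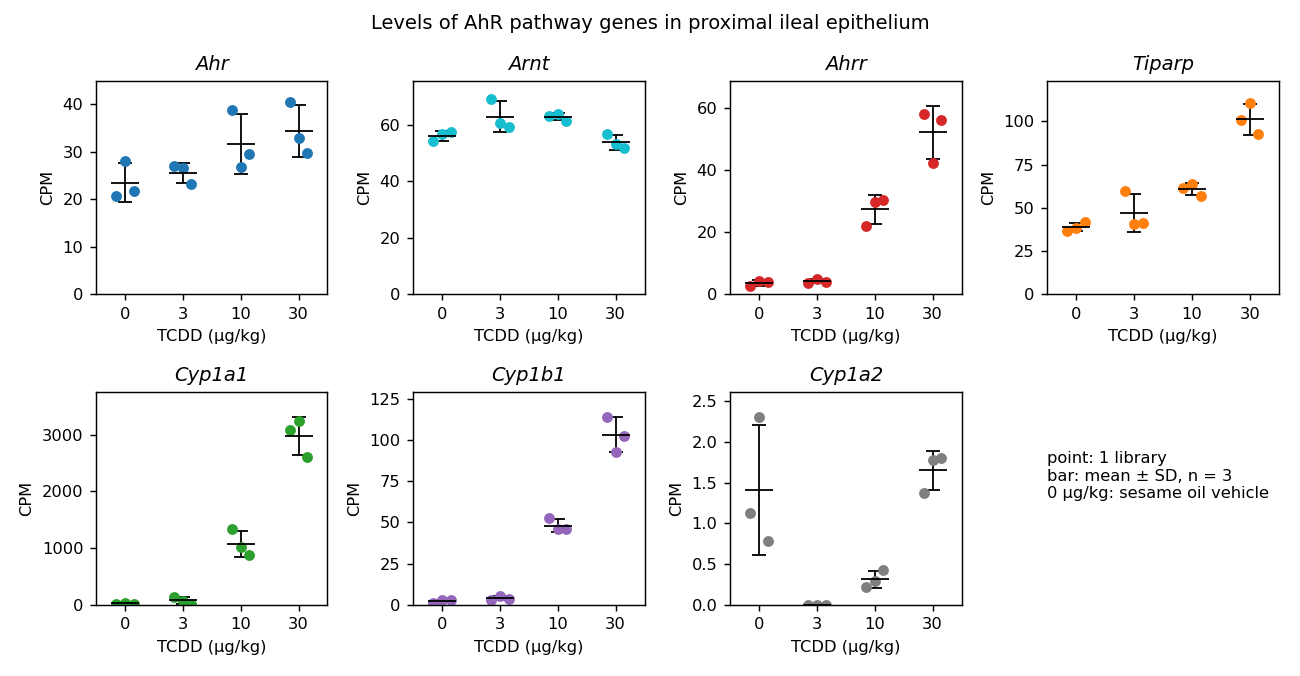
Level of each gene in CPM (linear axis from 0) against TCDD dose in μg/kg, with 1 point per library and bars for the mean ± SD (n = 3). Cyp1a1, Cyp1b1 and Ahrr are low at 0 and 3 μg/kg and climb at 10 and 30 μg/kg, Arnt stays between 51.7 and 69.1 CPM in all 12 libraries, and Cyp1a2 is at 0 in all 3 libraries of the 3 μg/kg group.

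Cyp1a1, the P450 most widely used as a readout of AhR activity, had the steepest response. The vehicle libraries held 22.7, 27.5 and 19.0 CPM, and those at 3 μg/kg held 141.3, 68.8 and 22.2 CPM. The values were 1333.2, 1019.1 and 872.5 CPM at 10 μg/kg, and at 30 μg/kg they were 3087.6, 3251.2 and 2608.2 CPM. The libraries at 10 and 30 μg/kg lay above every vehicle library and did not overlap each other, whereas at 3 μg/kg 1 library lay within the vehicle range. Cyp1a1 rose 46.6-fold at 10 μg/kg (log2 change 5.54 ± 0.53 SE, adjusted p = 0.000222) and 129.3-fold at 30 μg/kg (7.01 ± 0.57, adjusted p = 2.31e-05). It moved from rank 5540 among the 46078 genes by mean level in vehicle to rank 94 at 10 μg/kg and rank 30 at 30 μg/kg, where it took 0.292% of all gene counts. The step from 3 to 10 μg/kg was 13.9-fold (adjusted p = 0.00543), a call that was lost without replicate 2 of the 3 μg/kg group (log2 change 3.73, adjusted p = 0.0628) and with these 2 groups fitted alone (3.83, adjusted p = 0.0864). The step from 10 to 30 μg/kg was 2.77-fold with a 95% interval of 1.42 to 5.4 and missed the threshold (adjusted p = 0.0795). It passed in 2 of the 12 fits that left out 1 library, those without replicate 1 or replicate 3 of the 3 μg/kg group (adjusted p = 0.0171 and 0.00699). It also passed in 3 of the 9 other settings. These were the 2 groups fitted alone (adjusted p = 0.00252), no filter on low counts (0.00555) and DESeq2 (0.0376). The gene lies on chromosome 9 at 57687928 to 57703824, plus strand (ENSMUSG00000032315; GRCm38).

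The 3 μg/kg group is where Cyp1a1 varied most. Its highest library held 6.37 times the level of its lowest, and the coefficient of variation was 77.5%, against 11.2 to 21.9% in the other groups. The mean change was 3.35-fold (log2 1.74 ± 0.46, 95% interval 0.75 to 2.74) and was not called (adjusted p = 0.208). Without replicate 3, whose 22.2 CPM lay within the vehicle range, it was called (log2 2.19, adjusted p = 0.00876). DESeq2 also called it on all libraries (adjusted p = 0.0482). The other responsive genes ordered these 3 libraries differently. Cyp1a1 was highest in replicate 1 and lowest in replicate 3, while Cyp1b1 and Ahrr were highest in replicate 2 and lowest in replicate 1, and Tiparp was highest in replicate 1 and lowest in replicate 2.

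Cyp1b1, a P450 of the same family that is expressed mainly outside the liver and oxidizes estrogens and aromatic hydrocarbons, started from a low level. It held 1.35, 2.64 and 2.63 CPM in vehicle and 3.17, 5.2 and 3.7 CPM at 3 μg/kg, then 52.4, 45.9 and 45.9 CPM at 10 μg/kg and 114.1, 93.0 and 102.3 CPM at 30 μg/kg. No 2 of the 4 groups overlapped. Cyp1b1 rose 21.5-fold at 10 μg/kg (log2 4.43 ± 0.22, adjusted p = 8.86e-07) and 46.2-fold at 30 μg/kg (5.53 ± 0.22, adjusted p = 7.93e-08). Both dose steps were called, at 11.8-fold from 3 to 10 μg/kg (adjusted p = 3.27e-06) and 2.15-fold from 10 to 30 μg/kg (adjusted p = 0.00382). Every library at 3 μg/kg lay above every vehicle library, but the change of 1.82-fold (95% interval 1.28 to 2.59) was not called by edgeR (adjusted p = 0.221) and was called by DESeq2 (adjusted p = 0.0356). The counts behind this difference were 24, 57 and 50 in vehicle and 42, 89 and 63 at 3 μg/kg. Cyp1b1 lies on chromosome 17 at 79701537 to 79715061, minus strand (ENSMUSG00000024087).

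Cyp1a2, a P450 expressed chiefly in liver, did not follow its neighbor Cyp1a1 in the comparisons with vehicle. Across 3, 10 and 30 μg/kg the means of both genes rose. Its counts were 20, 50 and 15 in vehicle, 0, 0 and 0 at 3 μg/kg, 3, 4 and 7 at 10 μg/kg and 27, 20 and 33 at 30 μg/kg. In CPM the vehicle libraries held 1.13, 2.31 and 0.788, those at 10 μg/kg 0.216, 0.29 and 0.429 and those at 30 μg/kg 1.38, 1.78 and 1.81. Both lower doses therefore lay below every vehicle library, and the highest dose overlapped vehicle. Against a floor of 3 counts per library, Cyp1a2 was at least 7.33-fold lower at 3 μg/kg than in vehicle (adjusted p = 0.00824), a call lost when these 2 groups were fitted alone (adjusted p = 0.205). The log2 change at 10 μg/kg was -2.14 ± 0.50 (adjusted p = 0.0942), and at 30 μg/kg it was 0.21 with a 95% interval of -0.7 to 1.12 (adjusted p = 0.818). From 10 to 30 μg/kg Cyp1a2 rose 5.11-fold (adjusted p = 0.0264), but leaving out any 1 of the 6 libraries compared ended the call (adjusted p = 0.0507 to 0.11).

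The pairing of the neighbors changed with dose. Cyp1a2 counts amounted to 4.98, 8.42 and 4.16% of Cyp1a1 counts in vehicle, 0.0162, 0.0285 and 0.0491% at 10 μg/kg and 0.0447, 0.0547 and 0.0693% at 30 μg/kg. The transcripts of both genes share 94 stretches of 50 bases, out of 1963 in Cyp1a2, so reads from those stretches could have been left out as aligning to several places, and the level of Cyp1a2 is uncertain to that extent. Whether reads of Cyp1a1 were counted under Cyp1a2 was not tested. At 10 and 30 μg/kg, where Cyp1a2 counts were at most 0.0693% of Cyp1a1 counts, its level is uncertain for that reason too. Markers of pancreatic acinar cells moved with Cyp1a2 at the lower doses. Their summed level over 8 genes was 6.77 to 8.42 CPM in vehicle, 0 to 0.117 CPM at 3 μg/kg, 1.9 to 2.39 CPM at 10 μg/kg and 0.274 to 1.42 CPM at 30 μg/kg. All 8 markers reached 3 counts in every vehicle library, 0 did at 3 μg/kg, 3 to 6 did at 10 μg/kg and 1 to 2 at 30 μg/kg. Ctrb1, Cela2a and Pnlip, genes of digestive enzymes on this list, were called lower at both 3 μg/kg (adjusted p = 0.00435, 0.0268 and 0.00918) and 30 μg/kg (0.0198, 0.00341 and 0.00372). At 30 μg/kg the markers lay below vehicle while Cyp1a2 was back within the vehicle range, and their part in the result was not tested. Cyp1a2 lies on chromosome 9 at 57676937 to 57683703, minus strand (ENSMUSG00000032310).

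**Figure D2:**
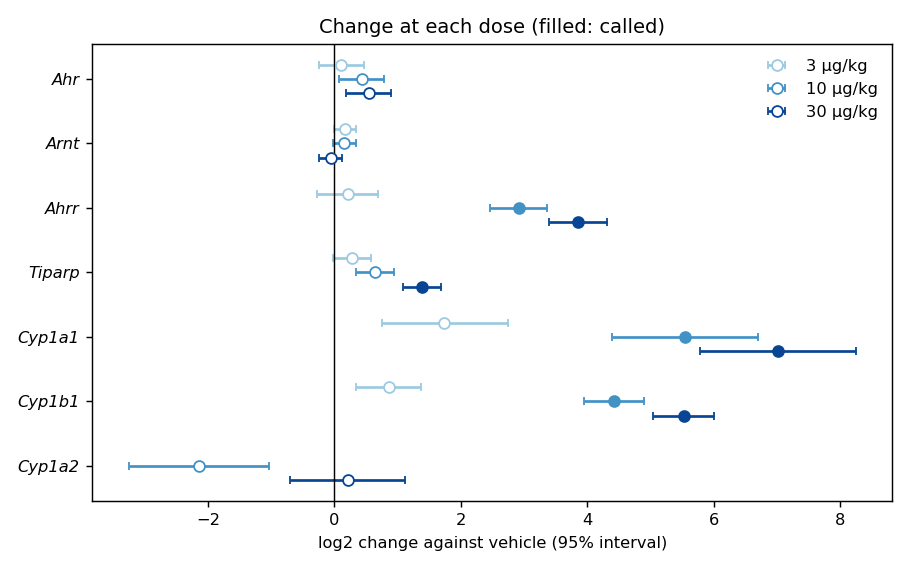
Log2 change against vehicle for each gene at 3, 10 and 30 μg/kg TCDD, with 95% intervals from the quasi-likelihood fit of 3 libraries per group; filled points were called. The intervals of Ahrr, Cyp1a1 and Cyp1b1 at 10 and 30 μg/kg lie far to the right of 0, those of Arnt include 0, and Cyp1a2 is not drawn at 3 μg/kg because all 3 libraries held 0 counts.

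Ahrr, the repressor that competes with AhR for ARNT, was low at 0 and 3 μg/kg and rose at both higher doses. The vehicle libraries held 2.48, 4.26 and 4.05 CPM and those at 3 μg/kg 3.62, 4.79 and 4.05 CPM. Levels were 21.9, 29.7 and 30.4 CPM at 10 μg/kg and 58.1, 42.4 and 56.1 CPM at 30 μg/kg. Vehicle and 3 μg/kg overlapped, and the higher doses lay above both and apart from each other. Ahrr rose 7.55-fold at 10 μg/kg (log2 2.92 ± 0.21, adjusted p = 1.94e-05) and 14.4-fold at 30 μg/kg (3.85 ± 0.21, adjusted p = 6.95e-07). Its log2 change at 3 μg/kg was 0.21, with a 95% interval of -0.28 to 0.69 (adjusted p = 0.769). The step from 10 to 30 μg/kg was 1.91-fold (log2 0.94 ± 0.18, adjusted p = 0.013), and it narrowly missed the threshold without replicate 2 of the 10 μg/kg group (adjusted p = 0.0502) or without replicate 1 or 3 of the 30 μg/kg group (adjusted p = 0.0529 and 0.0505). Ahrr lies on chromosome 13 at 74211118 to 74292331, minus strand (ENSMUSG00000021575).

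Tiparp, the ADP-ribosyltransferase that restrains AhR, rose less and from a higher base. Vehicle libraries held 36.7, 38.3 and 41.5 CPM, and those at 3 μg/kg held 59.8, 40.4 and 41.1 CPM. The level was 61.4, 63.9 and 56.8 CPM at 10 μg/kg and 100.9, 110.5 and 92.6 CPM at 30 μg/kg. A single library at 3 μg/kg, replicate 1, lay at the level of the 10 μg/kg group, while its companions lay at the top of the vehicle range. Tiparp rose 2.61-fold at 30 μg/kg (log2 1.38 ± 0.14, adjusted p = 0.000106) and 1.67-fold from 10 to 30 μg/kg (adjusted p = 0.0105). Every library at 10 μg/kg lay above vehicle, and the change was 1.56-fold (log2 0.65 ± 0.14), just outside the threshold (adjusted p = 0.0628). It passed without replicate 1 of the 3 μg/kg group (adjusted p = 0.00388) and with DESeq2 (adjusted p = 0.00447). Tiparp lies on chromosome 3 at 65528410 to 65555518, plus strand (ENSMUSG00000034640). A pseudogene on the opposite strand, 4931440P22Rik, overlaps its start and held 8 to 31 counts, and the strand setting of the counting is not given in the sources used here.

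As a share of the rise in mean level reached at 30 μg/kg, the 10 μg/kg group had gained 35.1% for Tiparp, 35.5% for Cyp1a1, 45.5% for Cyp1b1 and 48.8% for Ahrr. The share at 3 μg/kg was 1.84% for Cyp1a1, 1.8% for Cyp1b1, 1.15% for Ahrr and 13.3% for Tiparp. On this linear scale, the last dose step added more to the mean than the earlier steps together for each of the 4 genes. For Ahrr and Cyp1b1 this margin was smaller than the SD at 30 μg/kg (8.56 and 10.6 CPM).

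The receptor gene Ahr changed little beside its targets. It held 20.7, 28.1 and 21.7 CPM in vehicle, 26.9, 26.5 and 23.1 CPM at 3 μg/kg, 38.8, 26.7 and 29.6 CPM at 10 μg/kg and 40.5, 32.8 and 29.7 CPM at 30 μg/kg. Only the 30 μg/kg group cleared the vehicle range. The change at 30 μg/kg was 1.46-fold (log2 0.55 ± 0.16, 95% interval 0.19 to 0.9) and was not called (adjusted p = 0.0723). The slope over dose rank gave a fitted change of 1.5-fold over the whole range (log2 0.59 ± 0.15, adjusted p = 0.0395), which was called at the very limit of fold. That call was kept in 2 of the 8 other settings run on all libraries and in 4 of the 12 fits that left out 1 library. In the fits without 1 library, the log2 change ran from 0.5 (without replicate 1 of the 30 μg/kg group, adjusted p = 0.151) to 0.72. Ahr lies on chromosome 12 at 35497974 to 35535038, minus strand (ENSMUSG00000019256), and the noncoding gene Gm48236 overlaps its start on the opposite strand.

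Ahr also moved with a score of clock genes, computed as the mean standardized level of Dbp, Tef, Hlf, Per1, Per2, Per3, Nr1d1, Nr1d2 and Ciart minus that of Arntl, Clock, Npas2, Cry1 and Nfil3. The score was above 0 in replicates 2 and 3 of vehicle, replicate 1 at 3 μg/kg, replicate 1 at 10 μg/kg and replicates 1 and 2 at 30 μg/kg, between 1.39 and 2.01, and between -2.29 and -0.481 in the other libraries. Within all 4 groups, Ahr was higher in every library with a score above 0 than in every library with a score below 0. The nearest values were 21.7 against 20.7 CPM in vehicle and 26.9 against 26.5 CPM at 3 μg/kg. Each group set 1 library against 2, and the share of all genes tested that showed this order was not computed. This order was not particular to Ahr. It held in 3 of the 4 groups for Arnt, Tiparp and Cyp1a1, and in 1, 2 and 0 for Ahrr, Cyp1b1 and Cyp1a2. With the score as a covariate, the log2 change of Ahr at 30 μg/kg was 0.52 (adjusted p = 0.00987), past the p threshold but under the 1.5-fold limit. The highest Ahr values at 10 and 30 μg/kg, 38.8 and 40.5 CPM, were both in libraries of this kind. The same covariate brought Tiparp at 10 μg/kg past both limits (log2 0.74, adjusted p = 0.0071). Over all genes tested, this covariate took the number called from 97 to 127 at 10 μg/kg and from 628 to 909 at 30 μg/kg.

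Arnt, the partner that AhR shares with the hypoxia-inducible factors, varied least of the 7 genes relative to its level, between 51.7 and 69.1 CPM. Its levels were 54.2, 56.7 and 57.6 CPM in vehicle, 69.1, 60.7 and 59.2 CPM at 3 μg/kg, 63.2, 64.0 and 61.5 CPM at 10 μg/kg and 56.8, 53.1 and 51.7 CPM at 30 μg/kg. The 3 and 10 μg/kg groups lay above every vehicle library, each by 1.12-fold on average, and the 30 μg/kg group overlapped vehicle. None of these changes was called, with adjusted p between 0.349 and 0.728. At 30 μg/kg the log2 change was -0.06 with a 95% interval of -0.24 to 0.12, which leaves out a change of 1.5-fold in either direction. Arnt lies on chromosome 3 at 95434388 to 95497240, plus strand (ENSMUSG00000015522), and a processed pseudogene within an intron, Gm42672, held 11 to 34 counts.

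Levels of different genes were compared per kilobase of merged exon. In vehicle, Tiparp (8.9 ± 0.559 CPM per kb, SD, n = 3), Cyp1a1 (8.27 ± 1.53) and Arnt (7.01 ± 0.223) headed the order, with overlap between neighbors. Ahr followed at 3.82 ± 0.656, apart from the genes on either side, and Cyp1a2 (0.701 ± 0.398), Ahrr (0.381 ± 0.103) and Cyp1b1 (0.378 ± 0.126) overlapped at the bottom. The vehicle levels of Cyp1a1 per length thus overlapped those of both Tiparp and Arnt.

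Dose reordered the list. At 3 μg/kg Cyp1a1 (27.8 ± 21.5 CPM per kb) overlapped Tiparp (10.8 ± 2.53), and no other neighbors overlapped. At 10 μg/kg Cyp1a1 stood at 385.7 ± 84.5, followed by Tiparp at 13.9 ± 0.825, and Cyp1b1 (8.23 ± 0.635) had reached the level of Arnt (7.86 ± 0.155). At 30 μg/kg the order was Cyp1a1 (1070.1 ± 119.9), Tiparp (23.3 ± 2.05), Cyp1b1 (17.7 ± 1.81), Arnt (6.73 ± 0.331), Ahr (5.57 ± 0.905), Ahrr (5.53 ± 0.907) and Cyp1a2 (0.822 ± 0.119). Among these, Arnt overlapped Ahr and Ahr overlapped Ahrr.

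**Figure D3:**
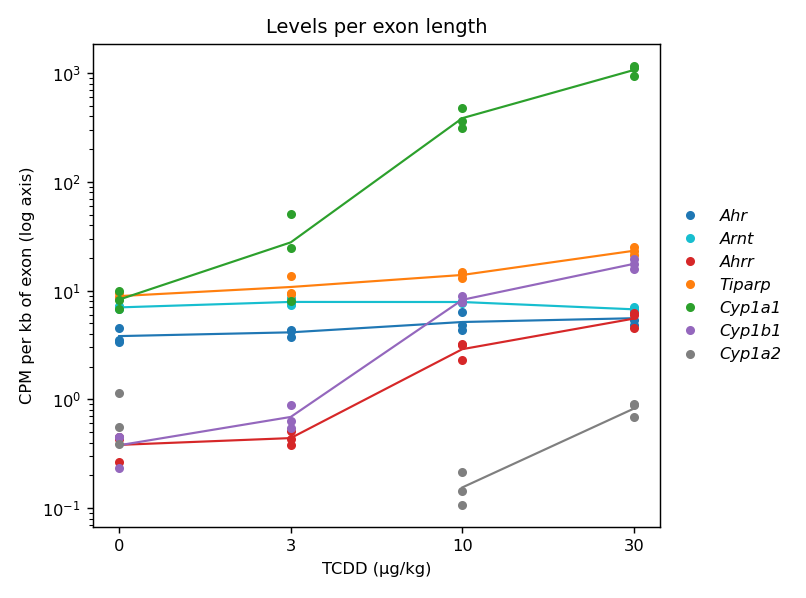
CPM per kilobase of merged exon on a log axis against TCDD dose in μg/kg, with 1 point per library and lines through the group means. Cyp1a1 climbs from 8.27 to 1070.1 CPM per kb, Ahrr reaches the level of Ahr at 30 μg/kg (5.53 and 5.57), and the 3 libraries with 0 counts of Cyp1a2 at 3 μg/kg cannot be shown on a log axis.

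The balance of repressor to receptor mRNA shifted with dose. Per length, the ratio of Ahrr to Ahr lay between 0.0783 and 0.122 in vehicle, 0.0878 and 0.118 at 3 μg/kg, 0.368 and 0.726 at 10 μg/kg and 0.844 and 1.23 at 30 μg/kg. The ratios at 0 and 3 μg/kg overlapped, and those at 10 and 30 μg/kg lay above them and apart from each other. The ratio of Ahr to Arnt had medians of 0.497, 0.506, 0.624 and 0.803 over the 4 doses, and at 30 μg/kg all 3 libraries (0.747 to 0.927) lay above the vehicle range of 0.49 to 0.645. The ratio of Cyp1a1 to Cyp1b1 was 15.1 to 35.1 in vehicle, 12.6 to 93.4 at 3 μg/kg, 39.8 to 53.4 at 10 μg/kg and 53.4 to 73.3 at 30 μg/kg.

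**Figure D4:**
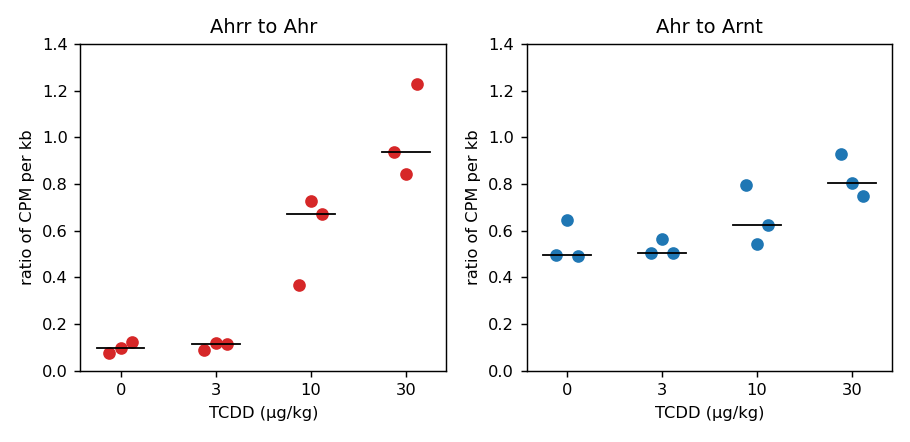
Ratio of Ahrr to Ahr (left) and of Ahr to Arnt (right), each as CPM per kilobase of exon in the same library, against TCDD dose in μg/kg; points are libraries and lines the group medians (n = 3). The median ratio of Ahrr to Ahr goes from 0.0988 in vehicle to 0.936 at 30 μg/kg.

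The genes with the most similar pattern were found by the root mean square difference of log2 CPM over the 12 libraries, each gene centered on its own vehicle mean, among 11195 genes with a mean count of at least 50. For Cyp1a1 these were Cyp1b1 (1.16 log2 units), Acta1 (1.57) and Ahrr (2.24). For Cyp1b1 they were Acta1 (0.872), Cyp1a1 (1.16) and Ahrr (1.19). Acta1, the skeletal muscle actin, had mean levels of 3.19, 4.48, 31.0 and 131.9 CPM over the 4 doses, and its reads are uncertain because the actin genes are near-identical. The summed level of 7 smooth muscle markers, Acta2 and Actg2 among them, was 59.7 to 197.3 CPM in vehicle and 37.1 to 123.6 CPM at 30 μg/kg, so it did not follow the rise of Acta1.

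Ahrr was most like Ildr1 (0.531 log2 units), a protein of tricellular junctions, Dgkh (0.672), a diacylglycerol kinase, and Apobec2 (0.814), a member of the cytidine deaminase family. Ildr1 had mean levels of 3.15, 6.24, 21.3 and 38.3 CPM over the 4 doses, and Dgkh 5.05, 10.1, 29.3 and 41.6 CPM. Unlike Ahrr, whose mean at 3 μg/kg was 0.23 log2 units above vehicle, these genes stood 1.0 and 0.96 log2 units above vehicle at that dose. The profile of Tiparp was nearest to Tmem86b (0.147), Scarna10 (0.157) and Dynlt1b (0.158), and Tmem86b, a lysoplasmalogenase, had mean levels of 50.8, 59.1, 84.1 and 117.7 CPM.

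The other genes of the pathway were read from lists by role. None of 4 genes of the cytosolic complex (Hsp90aa1, Hsp90ab1, Ptges3 and Src) was called by edgeR at any dose, and DESeq2 and limma-voom also called 0. At an unadjusted p under 0.05 there were 2, 3 and 2 genes at 3, 10 and 30 μg/kg, where 11.4, 15.9 and 21.6% of all genes tested lay under it, and the median log2 changes were 0.28, 0.34 and 0.26, beside 0, -0.01 and -0.02 over all genes. Hsp90aa1, the stress-inducible HSP90, had means of 41.7, 62.4, 60.4 and 46.0 CPM and was called at 3 μg/kg only without replicate 1 of that group. Among 14 coregulators, 0 were called by edgeR, DESeq2 or limma-voom, with 2, 3 and 2 at an unadjusted p under 0.05. Among 5 genes listed under AhR turnover (Cul4b, Ddb1, Rbx1, Tbl3 and Stub1), 0 were called by these tools and 0 had an unadjusted p under 0.05.

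Of the 13 relatives of AhR and ARNT in the bHLH-PAS family, 8 passed the filter, and edgeR called 0 at each dose, with 2, 1 and 2 at an unadjusted p under 0.05, beside the shares of 11.4, 15.9 and 21.6% of all genes. The slope called 1 of them and other settings called up to 2 at a dose, and the genes concerned are named here after their values were seen. Arnt2, a paralog of Arnt, had means of 7.08, 4.51, 3.99 and 2.34 CPM, and its log2 change at 30 μg/kg was -1.59 ± 0.44 (adjusted p = 0.0527), which DESeq2 and limma-voom called lower. Its slope was called lower by edgeR (log2 -1.47 ± 0.40 over the whole range, adjusted p = 0.0487). Epas1, the gene of hypoxia-inducible factor 2α, had means of 70.1, 45.8, 40.9 and 61.1 CPM and was called lower at 10 μg/kg by DESeq2 (edgeR adjusted p = 0.151). Hif3a was called higher at 30 μg/kg with the clock score as a covariate (log2 change 1.15 without it, adjusted p = 0.205).

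A further 17 genes are linked to AhR as targets in other tissues, of which 13 passed the filter. At 3, 10 and 30 μg/kg, 0, 3 and 5 of them were called, all higher, beside 0.228, 0.613 and 3.97% of all genes tested. The median log2 changes were 0.13, 0.35 and 0.47, beside 0, -0.01 and -0.02 over all genes. At 3 μg/kg DESeq2 and limma-voom also called 0, and 3 had an unadjusted p under 0.05, as did 11.4% of all genes tested. Ugt1a7c, a glucuronosyltransferase that conjugates aromatic compounds in gut, held 77.3, 78.9 and 90.8 CPM in vehicle and 298.0, 309.5 and 281.0 CPM at 30 μg/kg. It rose at 10 μg/kg (log2 1.31 ± 0.12, adjusted p = 0.000199) and at 30 μg/kg (1.85 ± 0.13, adjusted p = 4.77e-06), with all 3 libraries at each dose above vehicle. Ugt1a6b, of the same locus, went from a mean of 2.09 CPM to 6.62 CPM at 10 μg/kg (log2 1.66, adjusted p = 0.0125) and 7.92 CPM at 30 μg/kg (1.92, adjusted p = 0.00103), and Ugt1a6a from 7.13 to 16.0 CPM at 30 μg/kg (1.15, adjusted p = 0.0116). Genes of the Ugt1a locus share their last exons, so reads from these exons could have been left out as ambiguous, and these values are uncertain. Ugt1a6b at 10 μg/kg lost its call without vehicle replicate 2 or 3 or replicate 1 of the 10 μg/kg group (adjusted p = 0.0843, 0.0617 and 0.0581), and Ugt1a6a at 30 μg/kg without vehicle replicate 3 (0.0519).

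Other targets of the list rose less, rose at 1 dose or did not rise. At 30 μg/kg the log2 changes of Gsta1, Htatip2 and Socs2 were 0.05, -0.05 and -0.04. Ugdh was called lower from 10 to 30 μg/kg (log2 -0.68 ± 0.14, adjusted p = 0.0192). Its log2 change at 30 μg/kg against vehicle was -0.48 (adjusted p = 0.0719). Ugdh, Gsta1, Htatip2 and Socs2 are named here after their values were seen. Cyp2s1, an extrahepatic P450, went from 67.8 to 112.5 CPM at 30 μg/kg (log2 0.73 ± 0.16, adjusted p = 0.0193), and Selenbp1, a selenium-binding methanethiol oxidase, from 12.2 to 22.4 CPM (0.87 ± 0.18, adjusted p = 0.0152). The call of Cyp2s1 was lost without vehicle replicate 1 (adjusted p = 0.0506) or without replicate 2 or 3 of the 30 μg/kg group (0.061 and 0.0515), and that of Selenbp1 without vehicle replicate 3 (0.0559) or replicate 2 of the 30 μg/kg group (0.0557). Ido1, which opens the kynurenine pathway of tryptophan breakdown, had means of 31.8, 57.7, 76.4 and 54.3 CPM and was called at 10 μg/kg (log2 1.26 ± 0.25, adjusted p = 0.0394) but not at 30 μg/kg (0.78 ± 0.25, adjusted p = 0.0905). The call at 10 μg/kg was lost with the read index as a covariate (adjusted p = 0.0999), with the compared groups alone (0.0541) and in 7 of the 12 fits without 1 library (up to 0.195), and a call at 30 μg/kg was made with no filter, with DESeq2 and with the clock score (adjusted p = 0.0213, 0.0319 and 0.00153). The difference of Ido1 between these doses was not called either (log2 -0.49, adjusted p = 0.283). Nqo1, a quinone reductase commonly counted as an AhR target, was not called at 30 μg/kg (17.8 to 24.6 CPM, log2 0.47 ± 0.16, adjusted p = 0.12). The count of 3 at 10 μg/kg was 5 with no filter, DESeq2 or the clock score, which added Ugt1a6a and Selenbp1, and 1 (Ugt1a7c) without vehicle replicate 2 or 3. Without vehicle replicate 3 or replicate 2 of the 30 μg/kg group, the count at 30 μg/kg was 3. Il22 had 0 counts in all 12 libraries, where 3 counts equal 0.139 to 0.267 CPM.

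Finally, 6 genes that supply P450 enzymes with electrons or heme were all tested. At 30 μg/kg 2 were called, both higher, beside 3.97% of all genes tested. Cyb5a, which passes electrons to P450s, held 162.2, 156.7 and 180.6 CPM in vehicle and 275.5, 316.3 and 280.1 CPM at 30 μg/kg (log2 0.80 ± 0.13, adjusted p = 0.00257). Alas1, the first enzyme of heme synthesis, held 113.2, 101.6 and 118.7 CPM in vehicle and 197.5, 178.4 and 186.3 CPM at 30 μg/kg (log2 0.75 ± 0.12, adjusted p = 0.00223). For both genes every library at 30 μg/kg lay above every vehicle library. Por, the main electron donor of microsomal P450s, varied widely between libraries, and its log2 change of 0.47 at 30 μg/kg had a 95% interval of -0.38 to 1.33 (adjusted p = 0.526). At 3 and 10 μg/kg, edgeR, DESeq2 and limma-voom called 0 of the 6. At an unadjusted p under 0.05 there were 0 and 1, beside 11.4 and 15.9% of all genes tested.

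**Figure D5:**
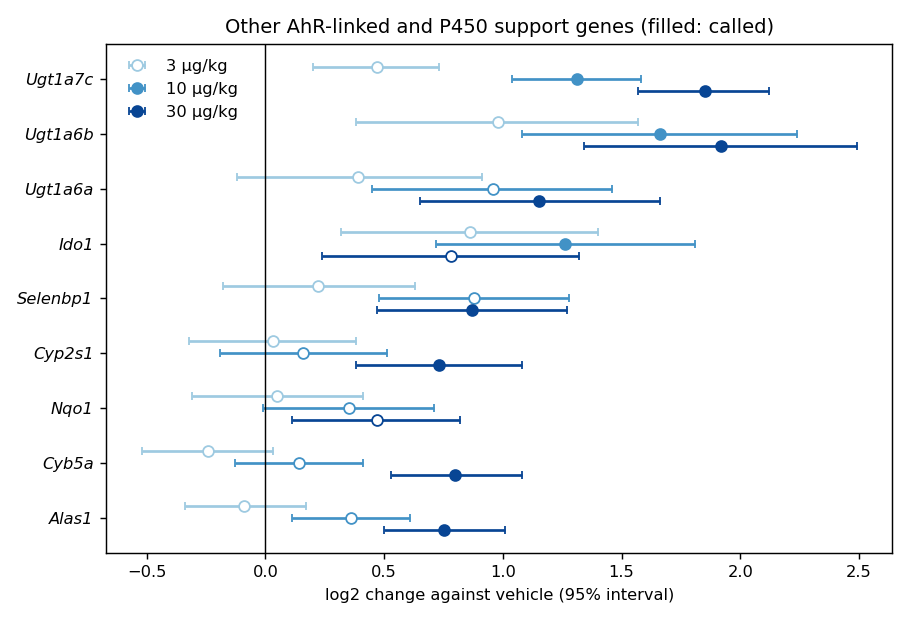
Log2 change against vehicle at 3, 10 and 30 μg/kg TCDD for 9 further genes, 7 AhR-linked genes and the P450 support genes Cyb5a and Alas1, with 95% intervals from the quasi-likelihood fit (n = 3 per group); filled points were called. Ugt1a7c and Ugt1a6b are called at 10 and 30 μg/kg, Ido1 at 10 μg/kg only, and Nqo1 at no dose.

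Other cell types of the wall were measured alongside. Summed levels of 6 macrophage markers were 53.5 to 65.8 CPM in vehicle and 74.3 to 76.8 CPM at 30 μg/kg, of 6 endothelial markers 20.9 to 41.4 and 38.1 to 39.3 CPM, of 8 stromal markers 86.5 to 161.4 and 76.2 to 112.4 CPM, of 10 T cell and innate lymphoid markers 122.0 to 142.6 and 146.5 to 220.4 CPM, and of 6 B and plasma cell markers 106.8 to 302.1 and 104.8 to 126.6 CPM. Of these lists, the markers called at 30 μg/kg were Cd3g, of T cells (log2 0.71, adjusted p = 0.00478), and Vwf, of endothelium (1.23, adjusted p = 0.0478), both higher. The macrophage and lymphoid sums at 30 μg/kg thus lay above vehicle, as Cyp1a1, Cyp1b1, Ahrr and Tiparp did, and their part in those results was not tested. At 10 μg/kg, where Cyp1a1 and Cyp1b1 had already risen, the macrophage sum was 37.8 to 57.0 CPM and the lymphoid sum 128.2 to 143.2 CPM.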

How the data were processed

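Libraries were made from total RNA of 12 ileal epithelial scrapings, 3 per dose, and each file holds raw counts of reads per Ensembl gene as deposited, without normalization. The submitters' processing notes name Trimmomatic 0.33, TopHat2 2.1.0, HTSeq 0.6.1 and build GRCm38. The annotation release and strand setting are not given in the sources used here. Entries that name no gene made up 60.3 to 64.6% of each file and were left out. Symbols, positions and exon lengths came from GENCODE M21, which matched 45143 of 46078 genes. The floor of 3 counts covers counting error only, and the intervals of fitted changes include the spread between libraries.

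Counts were analyzed with edgeR 4.0.16 in R 4.3.3 (filterByExpr, TMM scaling, 1 quasi-likelihood fit of 4 groups), with a fitted slope over dose rank 0 to 3 reported as the change over the whole range. CPM used effective library sizes. Alternatives were DESeq2 1.42.0, limma-voom (limma 3.58.1), other scalings and filters, the compared groups alone, read index or clock score as a covariate, and each library left out.

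The members and lists were chosen with earlier results of these data known. The text names all 7 members, genes of the 6 pathway lists called against vehicle plus Nqo1, marker genes called where their list is described, and for 4 members the 3 nearest profiles. Other list genes are named to describe a list or after their values were seen. Replicates are separate samples numbered in accession order, and P-values measure the spread between them. Some genes of the lists are not reported here and were left out of the list counts.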

Additional observations from a re-analysis of the deposited data

How the results depend on the processing

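Of the log2 changes of the 7 genes, 334 kept their direction and side of the threshold under alternatives run on all libraries, 12 gained a call, 8 lost one and 9 changed sign. With 1 library left out the numbers were 467, 4, 18 and 15. The 4 calls at 30 μg/kg (Ahrr, Tiparp, Cyp1a1 and Cyp1b1) were made in each of the 9 alternatives and the 12 fits without 1 library. The number of members called at 3 μg/kg (1) was 2 with no filter on low counts, 0 with a mean CPM of at least 1 (which removed Cyp1a2), 3 with DESeq2, 0 with the compared groups alone and 1 to 2 with 1 library left out. At 10 μg/kg (3) it was 5 with no filter, 5 with DESeq2 and 3 to 4 with 1 library left out. From 10 to 30 μg/kg (4) it was 2 to 5 with 1 library left out, and 2 without replicate 2 of the 10 μg/kg group or replicate 1 or 3 of the 30 μg/kg group. Sign changes were small. Arnt from 3 to 10 μg/kg (0 after rounding, on the negative side) was 0 with limma-voom, 0.01 with median-of-ratios or upper-quartile scaling, no filter, DESeq2 or the clock score, 0.02 with a mean CPM of at least 1 or the compared groups alone, and -0.04 to 0.08 with 1 library left out. Ahr from 10 to 30 μg/kg was -0.04 with the clock score and -0.03 to 0.29 with 1 library left out. With 1 library left out, Ahrr at 3 μg/kg was 0 to 0.33, Cyp1a2 at 30 μg/kg -0.07 to 0.78, the slope of Arnt -0.09 to 0.01 and the slope of Cyp1a2 -0.11 to 1.38. At 3 μg/kg, Cyp2s1 was 0 with upper-quartile scaling and -0.19 to 0.16 with 1 library left out, Selenbp1 -0.05 to 0.39 and Nqo1 -0.08 to 0.13. The cause of these changes was not tested. Over all genes, the number called at 3 μg/kg was 36, against 71 with no filter, 84 with DESeq2, 6 with the compared groups alone and 18 with the read index. At 10 μg/kg it was 97, against 215 with no filter, 262 with DESeq2 and 59 with the read index, and from 3 to 10 μg/kg it was 25, against 43 with no filter and 43 with DESeq2. DESeq2 gave no adjusted p for Cyp1a2 from 10 to 30 μg/kg, and the slope was not run with compared groups alone. No paired analysis was possible because the labels carry no replicate numbers. The read index, which occurs once in each group, was fitted as a covariate in place of a block, and it ended the calls of the Ahr slope (0.57, adjusted p = 0.0525) and of Ido1 at 10 μg/kg (1.23, adjusted p = 0.0999). Depth limits Cyp1a2, with at most 50 counts in a library.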
